A study of Mus musculus with 6 samples.

Results

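The genes of nitric oxide and arginine metabolism described here are 10 genes of mouse B16-OVA melanoma cells: Nos2, Gch1, Pts, Slc7a1, Slc7a2, Ass1, Asl, Arg1, Arg2 and Odc1. They were picked by symbol for their function, out of 56734 symbols in the count table. The choice was made with the folds of the genotype comparison known, and Nos2 and Slc7a2 were already seen among its deepest falls. The values of the 10 genes between the genotypes are therefore a description, and no p-value is given for them.

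B16-OVA is a line derived from mouse B16 melanoma that carries chicken ovalbumin as a model antigen. RNA selected for poly(A) was sequenced from 3 WT libraries, whose sample titles carry the tag gNC, and from 3 Ythdf2-KO libraries, tagged gY2; both were grown in the same serum-supplemented medium with no treatment named. The labels do not say whether a genotype is 1 clone or a pool of edited cells, nor whether its libraries came from separate cultures. Differences that a clone carries thus cannot be told apart from the knockout, and the spread between libraries may be technical. YTHDF2 is a cytoplasmic reader of N6-methyladenosine (m6A) that promotes decay of the mRNAs it binds.

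Nitric oxide synthases turn arginine into nitric oxide and citrulline, and need tetrahydrobiopterin as a cofactor. NOS2 is the inducible form, best known from macrophages exposed to cytokines or bacterial products, and it is also made by some melanoma cells. Arginine enters through cationic amino acid transporters, is rebuilt from citrulline by the enzymes ASS1 and ASL, and is used by arginases, whose product ornithine feeds polyamine synthesis through ODC1.

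The libraries held 55660473 to 69497273 counts and 17718 genes had enough counts to be tested. A count of 3 was worth 0.0433 to 0.0540 counts-per-million units (CPM). Levels below are CPM scaled with trimmed-mean (TMM) factors. Ythdf2 itself went from 124 ± 0.905 to 101 ± 2.04 CPM (SD, n = 3), a log2 fold change of -0.29 ± 0.026 (SE; adjusted p = 4.08e-13 by the quasi-likelihood test of edgeR, with Benjamini-Hochberg adjustment over all tested genes); gene counts show neither the edit nor the protein. All 7 melanocyte markers were expressed and higher in Ythdf2-KO, with summed levels of 237 to 241 CPM in WT and 1401 to 1431 CPM in Ythdf2-KO. Of 12 macrophage markers, 5 were tested, and 4 were lower and 1 higher in Ythdf2-KO. Their summed level was 53.9 to 56.7 CPM in WT and 34.7 to 39.3 CPM in Ythdf2-KO, nearly all of it from Cd68, Cd14 and Lyz2. The macrophage markers Adgre1 and Mrc1 were low in WT and lower still in Ythdf2-KO: Adgre1 had 48 counts in WT and 8 in Ythdf2-KO (edgeR adjusted p = 7.54e-04), and Mrc1 had 130 and 56 (edgeR adjusted p = 0.00400). Csf1r had 36 and 15 counts, Aif1 had 24 and 6 and Fcgr1 had 2 and 3, too few to test. The remaining markers were at or near 0: Itgam had 4 counts in WT replicate 3, Cx3cr1 had 5 counts there and C1qa had 2 counts in Ythdf2-KO replicate 1, with none in the other libraries. For Ptprc, a marker of all leukocytes, there were 2, 6 and 5 counts in WT and 2, 0 and 74 counts in Ythdf2-KO replicates 1 to 3. Of 5 neutrophil markers only S100a8 was tested, and it was lower. The summed level was 47.1 to 49.9 CPM in WT and 2.06 to 2.55 CPM in Ythdf2-KO. Nearly all of this sum came from S100a8, so it shows the fall of that gene and not of a marker set. S100a9 had 7 counts in WT replicate 3, where Csf3r and Cxcr2 had 2 each. Cxcr2 also had 2 counts in Ythdf2-KO replicate 1, and no other library held a count of these genes. Ly6g was at 0 in every library. All 4 fibroblast markers were tested and called, 2 in each direction, with summed levels of 820 to 843 CPM in WT and 650.3 to 665 CPM in Ythdf2-KO. Dcn went from 487 ± 8.10 to 41.5 ± 0.735 CPM and Lum fell 2.56-fold, while Col1a1 rose 4.56-fold and Pdgfra 1.51-fold. The part of these markers in the results below was not tested. In bulk RNA, fewer cells that make a transcript and less transcript per cell cannot be told apart.

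Nos2 was among the abundant mRNAs of WT cells and almost absent from Ythdf2-KO cells. The 3 WT libraries gave 302.6, 299.8 and 299.97 CPM, from 16813, 19633 and 20556 counts. The 3 Ythdf2-KO libraries gave 0.205, 0.227 and 0.231 CPM, from 14, 14 and 16 counts. Every WT library lay far above every Ythdf2-KO library, and within each genotype the libraries agreed closely, with a coefficient of variation of 0.525% in WT and 6.33% in Ythdf2-KO. Nos2 thus differed by a fitted log2 fold change of -10.40, which left 0.0734% of the WT mean. The ratio of WT to Ythdf2-KO in summed counts, scaled for library size, was 1362 (95% counting interval 1015 to 1875). By CPM, 96.9% of tested genes were below Nos2 in WT and 7.73% in Ythdf2-KO.

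**Figure D1:**
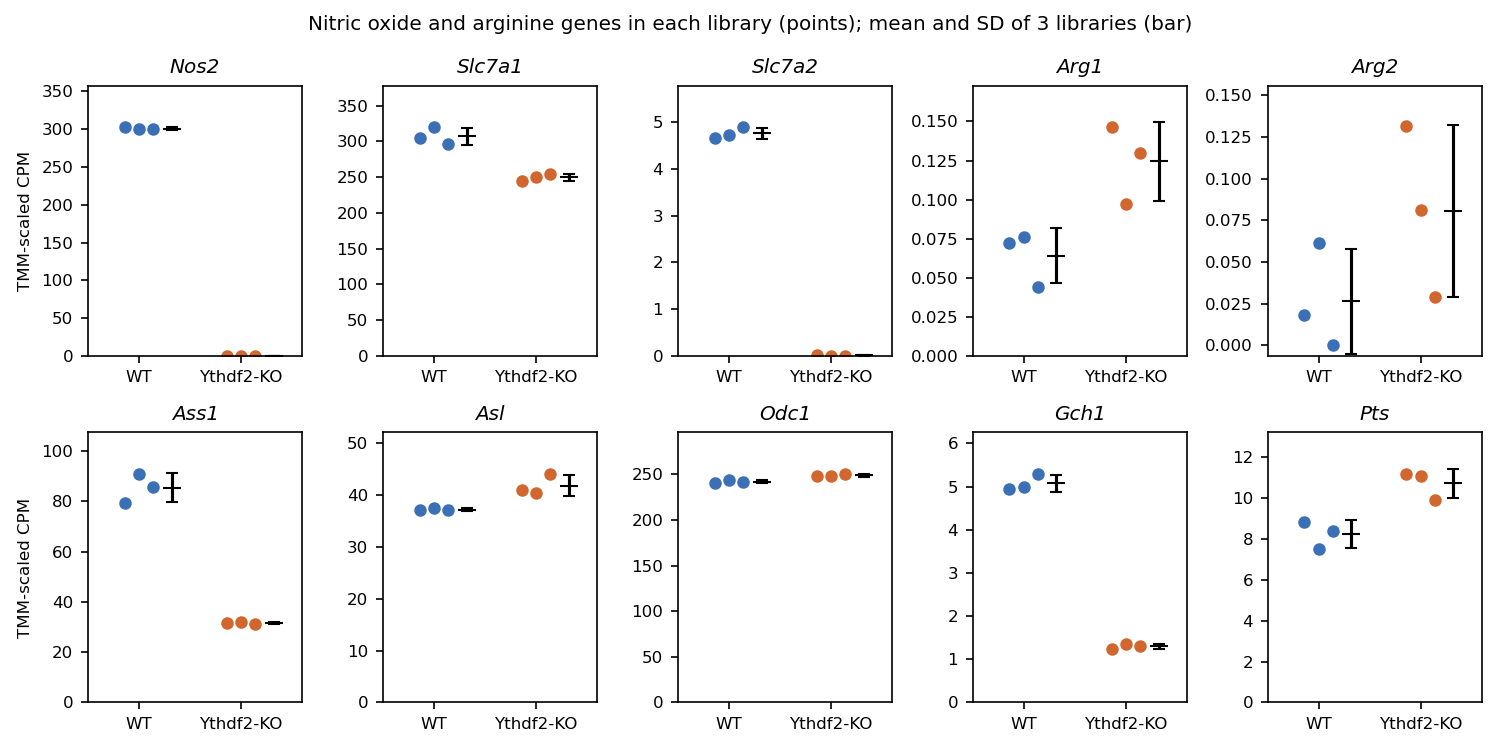
TMM-scaled CPM (linear axis, a separate scale per gene) of the 10 genes in each of the 3 WT (blue) and 3 Ythdf2-KO (orange) libraries, with the mean and SD beside the points. The Ythdf2-KO points of Nos2 and Slc7a2 lie on the baseline, those of Ass1 and Gch1 lie well below WT, those of Slc7a1 lie slightly below, and those of Asl, Pts and Odc1 lie slightly above WT.

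The other nitric oxide synthase genes went the opposite way, from lower levels. Nos1, which encodes the neuronal form, was at 65.4, 71.4 and 65.0 CPM in WT and at 91.1, 93.2 and 98.8 CPM in Ythdf2-KO. It rose by 0.49 ± 0.035 on the log2 scale (SE, n = 3; edgeR adjusted p = 5.03e-14), and its genotypes did not overlap; it was singled out after its values were seen. Nos3, which encodes the endothelial form, was at 2.84, 2.84 and 2.86 CPM in WT and at 4.98, 4.32 and 4.53 CPM in Ythdf2-KO, a rise of 0.70 ± 0.12 on the log2 scale (edgeR adjusted p = 4.91e-06). Per kilobase of the longest annotated coding transcript, Nos2 took 91.0, 90.2 and 91.0% of the summed synthase level in WT. In Ythdf2-KO, Nos1 took 87.8, 89.3 and 89.4% of that sum and Nos2 took 0.477, 0.525 and 0.505%. The sum went from 79.1 ± 0.365 to 10.5 ± 0.363 CPM per kb (SD, n = 3), while Nos1 and Nos3 together went from 7.34 ± 0.353 to 10.4 ± 0.361 CPM per kb. The rise of the other synthase mRNAs was thus small beside the loss of Nos2. The shares and sums depend on the transcript length used. With the median length of annotated coding transcripts, Nos1 was at 15.0 CPM per kb in WT and 21.0 in Ythdf2-KO. Nos2 was then at 78.9 and 0.0580 CPM per kb. Endothelial markers, which could accompany Nos3, summed to 2.53 to 2.66 CPM in WT and 1.71 to 2.17 CPM in Ythdf2-KO over 4 genes. Of these 4 markers, 2 were tested and 1 was called, lower.

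**Figure D2:**
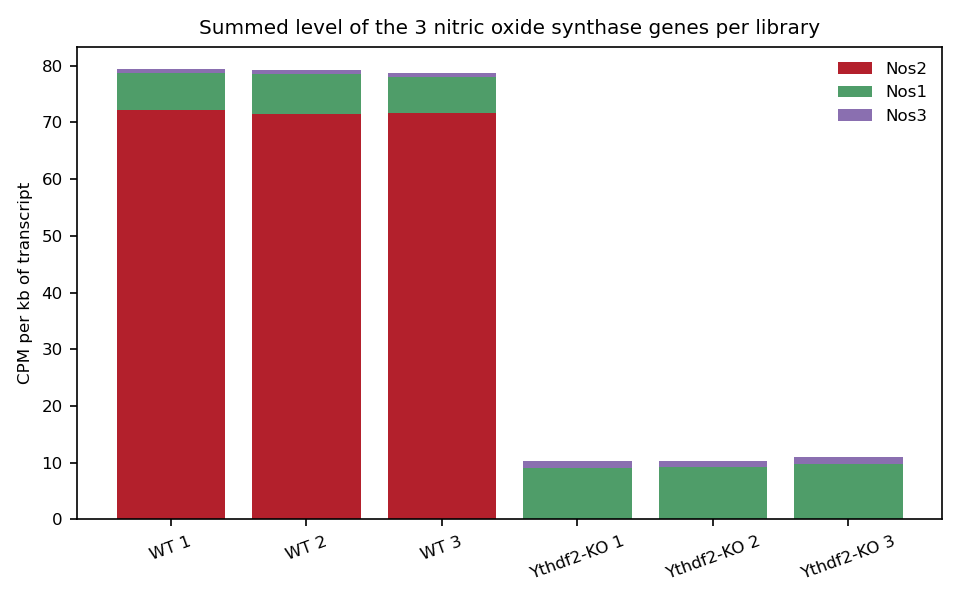
Stacked bars of the levels of Nos2, Nos1 and Nos3 in CPM per kb of the longest annotated coding transcript for each library. The bars reach about 79 in WT, mostly Nos2, and about 10 in Ythdf2-KO, mostly Nos1.

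Among the cofactor genes, Gch1 was lower and Pts slightly higher in Ythdf2-KO. Gch1 encodes GTP cyclohydrolase, which catalyses the first and limiting step of tetrahydrobiopterin synthesis. It stood at 4.95, 4.98 and 5.30 CPM in WT and at 1.23, 1.36 and 1.299 CPM in Ythdf2-KO. The genotypes were far apart compared with their spread, with a log2 fold change of -1.97 ± 0.14 (SE, n = 3) that left 25.5% of the WT mean. Pts encodes the next enzyme of the pathway. It stood at 8.86, 7.53 and 8.38 CPM in WT and at 11.2, 11.1 and 9.90 CPM in Ythdf2-KO, a log2 fold change of 0.38 ± 0.081 with no overlap.

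Further genes of cofactor synthesis and recycling were listed by role. All role lists were chosen with earlier results of these data known, so their counts and adjusted p-values are a description. Of the 5 reported, 3 were tested, and Spr, Qdpr and Pcbd2 did not pass (edgeR adjusted p = 0.985, 0.805 and 0.341). Spr, which encodes the enzyme of the last step, was at 46.2 CPM in both genotypes, with a log2 difference of 0.0011 ± 0.039. Qdpr and Pcbd2, which encode recycling enzymes, had log2 differences of 0.013 and 0.12. Pcbd1 had 5 counts in WT and 16 in Ythdf2-KO, and Gchfr, whose product restrains GTP cyclohydrolase, had 2 and 0 counts, too few to test.

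Both arginine carriers were lower in Ythdf2-KO, to very different extents. Slc7a2, which encodes the cationic amino acid transporter CAT-2, had 259, 309 and 335 counts in WT, or 4.66, 4.72 and 4.89 CPM. In Ythdf2-KO it had 2 counts in replicate 1 and 0 counts in replicates 2 and 3. The ratio of WT to Ythdf2-KO in summed counts, scaled for library size, was 475 (95% counting interval 131 to 3926), which covers counting error only and is too narrow if the 2 counts came from 1 read pair. Without Ythdf2-KO replicate 1, no count remained and the level was at least 97.9-fold lower, against a floor of 3 counts per library. Slc7a1, which encodes the widely expressed carrier CAT-1, was at 305, 319.96 and 296 CPM in WT and at 245, 249.9 and 255 CPM in Ythdf2-KO. All WT libraries lay above all Ythdf2-KO libraries, with a log2 fold change of -0.30 ± 0.024 (SE, n = 3), and 81.4% of the WT mean was kept. Per kilobase of transcript, Slc7a1 was at 42.8 ± 1.70 CPM per kb in WT against 0.601 ± 0.0149 for Slc7a2, so Slc7a1 was the more abundant carrier mRNA before as well as after the loss of Slc7a2.

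Of 9 further genes of arginine and ornithine transport and sensing, all were tested; 4 were lower, 2 were higher and 3 did not pass, which is 66.7% called beside 49.9% of all tested genes. Slc3a2, which encodes the heavy chain that partners several amino acid exchangers, went from 334 ± 5.00 to 254 ± 6.92 CPM (edgeR adjusted p = 1.19e-19). Slc7a6, a light chain that exports arginine against neutral amino acids, had a log2 fold change of -0.22. Slc25a29 and Castor1, a mitochondrial carrier of basic amino acids and a cytosolic arginine sensor for mTORC1, had log2 fold changes of -0.55 and -0.58. The sensor genes Castor2 and Slc38a9 rose by 0.53 and 0.32. None of the 9 differed by 1.5-fold, and the list's median of -0.025 was near the median over all tested genes of -0.0053.

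Of the enzymes that rebuild arginine, Ass1 was lower and Asl slightly higher. Ass1, which encodes the argininosuccinate synthase that condenses citrulline with aspartate, was at 79.4, 91.0 and 85.7 CPM in WT and at 31.7, 32.2 and 31.3 CPM in Ythdf2-KO. WT libraries varied more than Ythdf2-KO libraries, and the lowest WT value was still far above the highest Ythdf2-KO value. This was a log2 fold change of -1.43 ± 0.040 (SE, n = 3), which left 37.2% of the WT mean. Asl, which encodes the lyase of the following step, was at 37.0, 37.4 and 37.0 CPM in WT and at 41.0, 40.3 and 44.1 CPM in Ythdf2-KO, a log2 fold change of 0.17 ± 0.041 with no overlap.

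The genes of arginine breakdown were either barely detected or level. Arg1, which encodes the cytosolic arginase known from liver and from macrophages, had 4, 5 and 3 counts in WT and 10, 6 and 9 counts in Ythdf2-KO. Summed, it was at 0.0633 CPM in WT (95% Poisson interval 0.0327 to 0.111) and 0.125 CPM in Ythdf2-KO (0.0812 to 0.185), and the genotypes' libraries did not overlap. Arg2, which encodes the mitochondrial arginase, had 1, 4 and 0 counts in WT and 9, 5 and 2 counts in Ythdf2-KO, and its genotypes overlapped. The ratio of Ythdf2-KO to WT in summed counts, scaled for library size, was 1.98 for Arg1 (95% counting interval 0.959 to 4.33) and 3.04 for Arg2 (1.07 to 10.6). These intervals leave out the spread between libraries and are too narrow if read pairs gave 2 counts. Neither arginase had enough counts to be tested across libraries. Odc1, which encodes the ornithine decarboxylase that starts polyamine synthesis, was abundant and nearly level at 240.3, 244 and 242 CPM in WT and at 248, 248 and 251 CPM in Ythdf2-KO. Its Ythdf2-KO libraries all lay above WT by a small margin, with a log2 fold change of 0.040 ± 0.022 that was not called. It was called with upper-quartile scaling (log2 fold change 0.094), with a filter at a mean of 5 CPM (0.064) and without WT replicate 2 (0.057).

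Altogether 8 of the 10 genes passed the filter on low counts, and the untested genes were Arg1 and Arg2. At an adjusted p under 0.05, 5 of the 8 were lower and 2 higher in Ythdf2-KO, where 49.9% of all tested genes were called (24.1% higher and 25.8% lower). Of all calls, 48.3% were higher with TMM factors and 59.2% with upper-quartile factors. Nos2, Slc7a2, Gch1 and Ass1 were at least 2-fold lower, where 3.38% of all tested genes were. All 8 had genotypes that did not overlap, against 55.9% of tested genes. The genes were chosen with this comparison known, so these counts describe them and support nothing.

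Levels per kilobase of transcript gave the order of the genes within a genotype. In WT it ran from Odc1 (110 ± 0.866 CPM per kb; SD, n = 3) through Nos2 (71.8 ± 0.377), Ass1 (50.3 ± 3.43), Slc7a1 (42.8 ± 1.70), Asl (15.4 ± 0.0933), Pts (7.89 ± 0.643), Gch1 (1.83 ± 0.0695) and Slc7a2 (0.601 ± 0.0149) to Arg1 and Arg2, whose SDs overlapped. In Ythdf2-KO it began with Odc1 (113 ± 0.739 CPM per kb), Slc7a1 (34.8 ± 0.642), Ass1 (18.7 ± 0.257) and Asl (17.3 ± 0.829). Pts (10.3 ± 0.687) and Gch1 (0.467 ± 0.0236) followed. Arg1 (0.0843 ± 0.0170), Arg2 (0.0564 ± 0.0360) and Nos2 (0.0527 ± 0.00334) came next, where the SD range of Arg2 overlapped those of both others, and Slc7a2 came last at 0.00123 CPM per kb. With the median length of annotated coding transcripts in place of the longest, Slc7a1 came first in both genotypes, at 249 and 203 CPM per kb, ahead of Odc1. In Ythdf2-KO, Asl (30.4 CPM per kb) and Pts (22.6 CPM per kb) then also lay above Ass1 (18.7 CPM per kb).

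**Figure D3:**
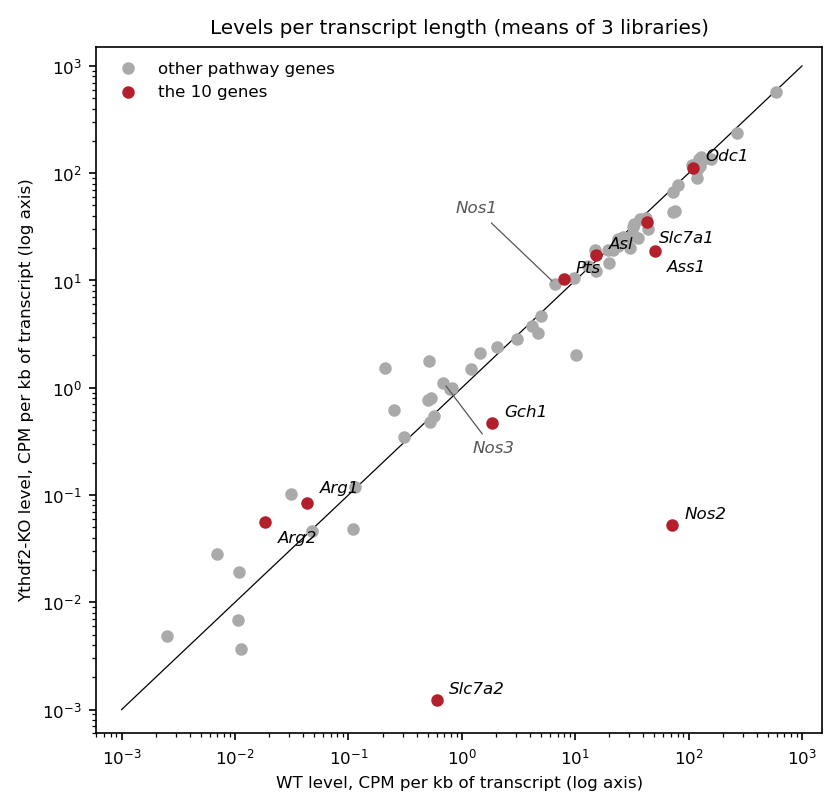
Mean level in Ythdf2-KO against mean level in WT in CPM per kb of transcript (both axes log, n = 3 libraries each), for the 10 genes (red) and the other listed pathway genes with a level above 0 in both genotypes (grey); the line marks equal levels. Nos2 and Slc7a2 lie far below the line, Gch1 and Ass1 moderately below, and Odc1, Asl, Pts and Slc7a1 near it.

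The m6A consensus is most often found as GGACT in the DNA alphabet, and its matches were counted in the longest coding transcript of each gene in the GENCODE annotation of GRCm38. Of the 4 genes at least 2-fold lower, Nos2 held 2 matches in 4192 bases, Slc7a2 held 3 in 7910, Ass1 held 1 in 1696 and Gch1 held 1 in 2775. These were 0.477, 0.379, 0.590 and 0.360 per kb. Over 13022 tested genes with a coding transcript the medians were 3 matches and 1.05 per kb, and 92.4% of them held a match. Slc7a1 held 5 matches (0.696 per kb), Asl 5 (2.07 per kb), Arg1 2 (1.35 per kb), and Arg2, Odc1 and Pts held none. The match nearest to the end of the coding sequence, a part of mRNAs often rich in m6A, is shown for the 4 lower genes and for Asl, 5′ to 3′ on the mRNA strand with the motif in capitals.
Nos2: gtactattgtGGACTactaaatctc
Slc7a2: agcactaattGGACTcaacaagtta
Gch1: ggtgcacagaGGACTtcggtctagt
Ass1: cagactacacGGACTccagggacct
Asl: gtcacgtgtgGGACTacagtcacag
The motif began 141 bases past the last coding base in Nos2, 2139 bases past it in Slc7a2 and 1061 bases past it in Gch1, and 1271 and 108 bases before it in Ass1 and Asl. m6A was not measured in these libraries, and a match of letters is not a methylated site.

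Promoter sequences from RefSeq (GRCm38.p6), from 250 bases before to 50 bases after a start, were matched for 5 of the 10 genes: Gch1, Ass1, Slc7a1, Odc1 and Pts, with 6 starts in all. The promoters of Gch1 and Ass1 are shown because both mRNAs were lower, and that of Pts because it acts next to Gch1 and was higher. Capitals mark matches on either strand to the TATA box with the letters TATAAA, the CCAAT box, the GC box with the letters GGGCGG, the E-box with the letters CACGTG, and the kappaB consensus; no marked matches overlap. All are given 5′ to 3′ on the gene's own strand, which is minus for Gch1 (chr14:47189364-47189663) and Pts (chr9:50528607-50528906) and plus for Ass1 (chr2:31470020-31470319).
Gch1: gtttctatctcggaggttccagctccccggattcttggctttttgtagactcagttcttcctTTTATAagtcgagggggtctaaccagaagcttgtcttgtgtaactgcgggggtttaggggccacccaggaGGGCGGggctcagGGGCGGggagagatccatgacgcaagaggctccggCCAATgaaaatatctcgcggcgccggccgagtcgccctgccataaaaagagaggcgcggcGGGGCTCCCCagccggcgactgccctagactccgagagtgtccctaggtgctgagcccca
Ass1: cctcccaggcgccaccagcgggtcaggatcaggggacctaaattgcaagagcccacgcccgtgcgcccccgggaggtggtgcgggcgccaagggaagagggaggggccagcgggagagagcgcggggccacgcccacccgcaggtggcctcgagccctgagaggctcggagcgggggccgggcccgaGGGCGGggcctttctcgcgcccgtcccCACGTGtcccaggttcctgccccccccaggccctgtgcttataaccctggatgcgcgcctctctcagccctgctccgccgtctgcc
Pts: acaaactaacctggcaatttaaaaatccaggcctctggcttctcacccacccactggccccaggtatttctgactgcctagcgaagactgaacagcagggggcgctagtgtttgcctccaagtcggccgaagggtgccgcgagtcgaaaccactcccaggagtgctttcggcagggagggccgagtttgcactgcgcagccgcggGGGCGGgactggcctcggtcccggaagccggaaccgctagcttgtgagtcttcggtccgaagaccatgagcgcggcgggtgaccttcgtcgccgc
A kappaB match occurred in 1 of the 6 promoters, that of Gch1, 10 bases before the start; 4.51% of the 32851 promoters in the table held one. A GC box occurred in 5 of the 6 promoters, against 35.7% of all, an E-box in 1, that of Ass1, against 7.15%, and a CCAAT box and a TATA box each in 2, against 37.4 and 13.6%. The TATA match of Gch1 was on the opposite strand and far from the start. The other, at 1 start of Slc7a1, began 28 bases before the start on the gene's strand.

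Of the transcription factors known to induce Nos2 in mouse macrophages, 7 are reported. Of these, 6 were lower in Ythdf2-KO, beside 25.8% of all tested genes, and Hif1a did not pass, at a log2 fold change of -0.032 that turned to 0.022 with upper-quartile scaling. Cebpd, which encodes C/EBP-delta, was at 40.2, 35.5 and 38.3 CPM in WT and at 7.04, 7.25 and 8.16 CPM in Ythdf2-KO, a fall of 5.07-fold (edgeR adjusted p = 1.96e-32). Nfkb1 and Cebpb, which encode an NF-kappaB subunit and C/EBP-beta, fell 1.72- and 1.68-fold. Irf1 and Rela, which carry interferon and NF-kappaB signals, had log2 fold changes of -0.50 and -0.30 and were called. Irf8 had 59 counts in WT and 27 in Ythdf2-KO (edgeR adjusted p = 0.0420), a call lost in 9 of 11 alternatives, leaving out any library except Ythdf2-KO replicate 2 among them, with adjusted p between 0.0445 and 0.154 over all 11. The median of the list was -0.75, against -0.0053 over all tested genes. The list was chosen with earlier results of these data known, so its counts and median describe it and support nothing. The falls of these factors were far smaller than that of Nos2, and any part of them in its fall was not tested.

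In the group of nitric oxide control and signalling, which also holds Nos1 and Nos3, 14 of 17 genes were tested, and 7 were higher and 2 lower, which is 64.3% called beside 49.9% of all tested genes (24.1% higher and 25.8% lower). Prkg1, which encodes the cyclic GMP-dependent kinase downstream of nitric oxide, was at 1.44, 1.39 and 1.53 CPM in WT and at 10.03, 10.9 and 11.2 CPM in Ythdf2-KO, a rise of 7.35-fold (edgeR adjusted p = 4.18e-26). Ddah1, whose product clears the methylarginines that inhibit nitric oxide synthases, rose 2.46-fold from 0.947 ± 0.218 CPM. Nostrin, which encodes a trafficking partner of the endothelial synthase, rose 1.52-fold (edgeR adjusted p = 0.0232), a call lost without WT replicate 2 (edgeR adjusted p = 0.0761), without Ythdf2-KO replicate 1 (edgeR adjusted p = 0.0582) or without Ythdf2-KO replicate 2 (edgeR adjusted p = 0.120). Pde5a, which encodes a phosphodiesterase that breaks down cyclic GMP, rose by 0.58 on the log2 scale, and Calm3, 1 of 3 calmodulin genes, by 0.15, while Calm2 fell by 0.18. Of the nitric oxide receptor, soluble guanylate cyclase, the subunit gene Gucy1a2 had 338 counts in WT and 441 in Ythdf2-KO and was not called (edgeR adjusted p = 0.156). Gucy1b1 had no count in any library and Gucy1a1 had 10 counts in WT and 18 in Ythdf2-KO; Nos1ap had 6 and 4 counts.

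Of 12 listed genes of arginine use other than the arginases, 8 were tested, and 4 were lower and 2 higher, which is 75% called beside 49.9% of all tested genes. Among these 6, Prodh alone differed by 1.5-fold. Prodh, which encodes a proline dehydrogenase, rose 3.45-fold from 1.22 ± 0.0977 to 4.20 ± 0.341 CPM (SD, n = 3; edgeR adjusted p = 1.14e-13), and Gamt, the second enzyme of creatine synthesis, rose by 0.37 on the log2 scale. Gatm, the first enzyme of creatine synthesis, fell by 0.31, and Oat, Rars and Aldh18a1 fell by 0.11, 0.10 and 0.070; the call of Aldh18a1 was lost with RLE (edgeR adjusted p = 0.0848) and upper-quartile scaling (edgeR adjusted p = 0.656). The urea cycle genes Cps1, Otc and Nags had 12, 0 and 1 counts in WT and 4, 0 and 2 in Ythdf2-KO, and Agmat had 2 and 8.

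Of 15 listed polyamine genes, 14 were tested, and 7 were lower, 3 higher and 4 not called, which is 71.4% called beside 49.9% of all tested genes. None of the 14 differed by 1.5-fold, and their median log2 fold change was -0.12. Upper-quartile scaling moved the median over all tested genes up by 0.054, and with it the calls of Dhps and Eif5a were lost (edgeR adjusted p = 0.139 and 0.616). Azin1, whose product protects ornithine decarboxylase from its antizyme, was at 209.7, 213 and 211 CPM in WT and at 149, 148 and 146 CPM in Ythdf2-KO (log2 fold change -0.52 ± 0.023; edgeR adjusted p = 2.01e-23). Oaz1, which encodes the antizyme, rose by 0.15. Srm and Sms, the synthases of spermidine and spermine, fell by 0.19 and 0.20, and Smox, the oxidase of spermine, fell by 0.45. Amd1 fell by 0.13 and Amd2 did not pass, at -0.047 or, with upper-quartile scaling, 0.0067; these near-identical genes can share reads. Oaz3 had 20 counts in WT and 22 in Ythdf2-KO and was not tested.

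Over the 6 role lists together, 37 of 55 tested genes were called, 14 higher and 23 lower, which is 67.3% beside 49.9% of all tested genes. Among them 9 differed by at least 1.5-fold, 5 higher and 4 lower, while 15.0% of all tested genes were called at that size. Their median absolute log2 fold change, 0.19, was near that of all tested genes, 0.21. The lists were chosen with earlier results of these data known, so these shares support nothing.

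**Figure D4:**
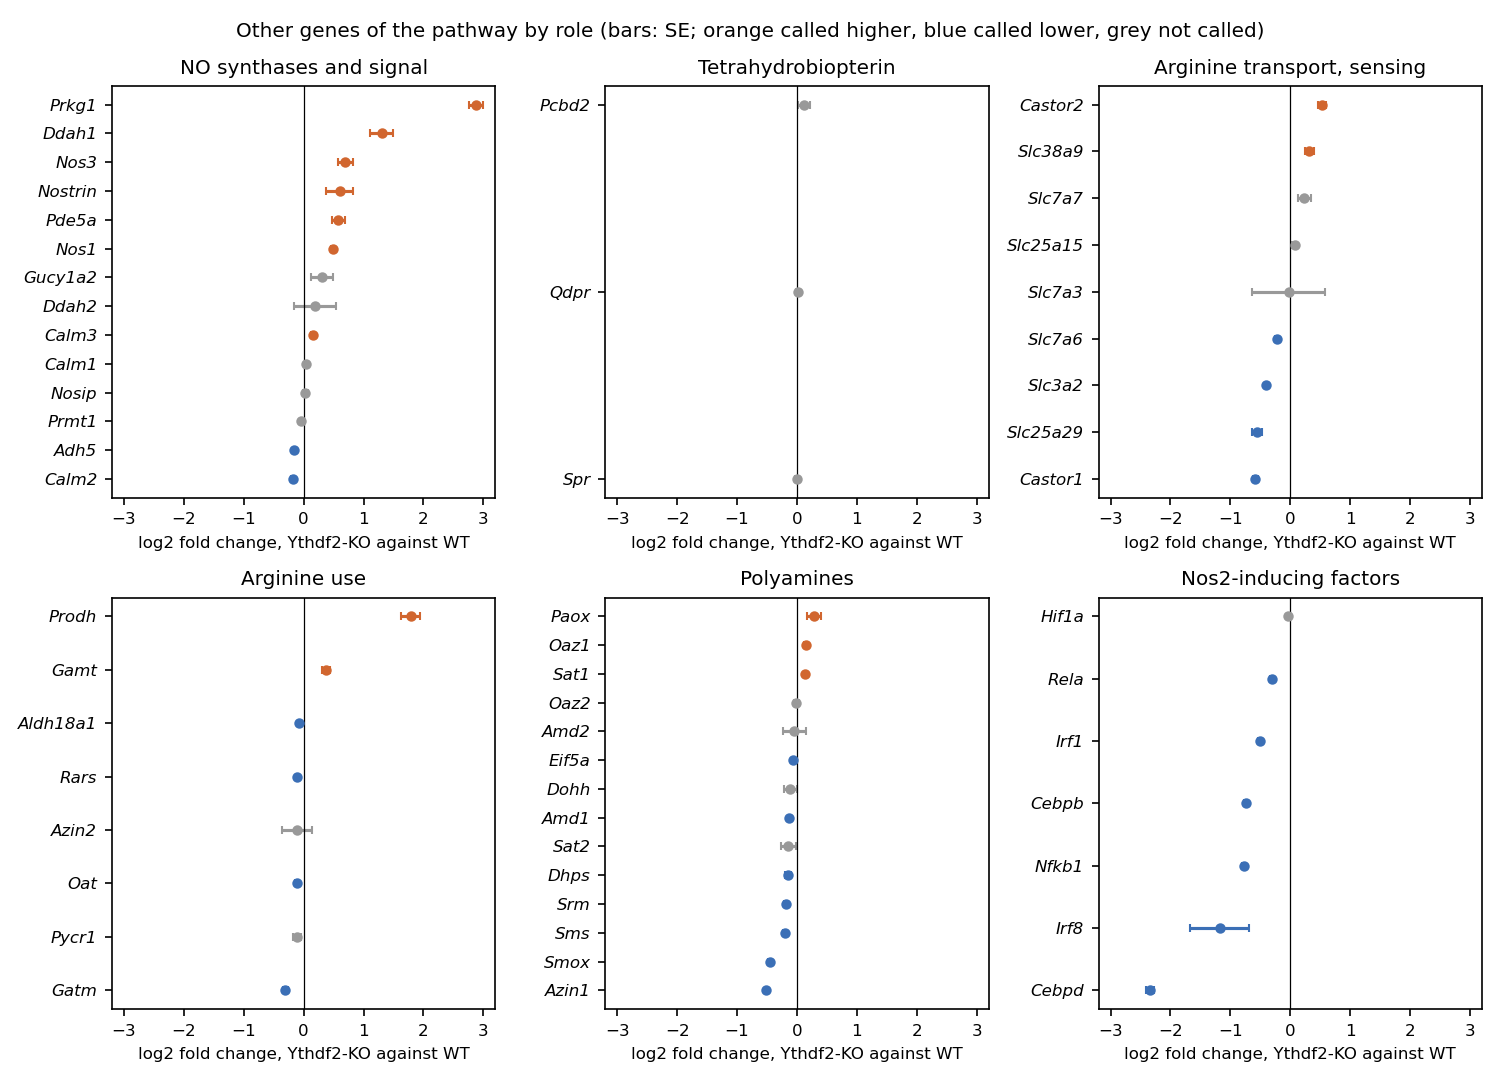
Log2 fold change (Ythdf2-KO against WT, bars SE) of the tested genes of 6 role lists; orange marks genes called higher, blue genes called lower and grey genes not called at an adjusted p of 0.05. Most lie within 0.6 of 0; Prkg1, Ddah1 and Prodh lie above 1, and Cebpd and Irf8 lie below -1.

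The genes that flank Nos2 on chromosome 11 did not share its fall. The nearest tested genes on either side, by the RefSeq order of GRCm38, were Lyrm9 and Lgals9. Lyrm9 rose from 3.30 ± 0.187 to 5.02 ± 0.350 CPM and Lgals9, which encodes galectin-9, fell from 139 ± 4.52 to 124 ± 0.604 CPM (edgeR adjusted p = 2.51e-05 and 5.85e-07). Of the 20 nearest tested genes, 10 on each side, 6 were higher, 6 lower and 8 not called. Of all tested genes, 24.1% were higher and 25.8% lower. None of the 20 was 2-fold lower, and the lowest was Ksr1 at a log2 fold change of -0.31. Around Slc7a2 on chromosome 8, both nearest tested genes were lower: Mtmr7 fell from 2.65 ± 0.0913 to 1.59 ± 0.418 CPM (edgeR adjusted p = 4.48e-04) and Mtus1 fell 4.16-fold from 0.926 ± 0.298 to 0.221 ± 0.0454 CPM (edgeR adjusted p = 2.21e-06). Of the 20 tested genes nearest to Slc7a2, 6 were higher, 9 lower and 5 not called, where 25.8% of all tested genes were lower. Mtus1 alone was 2-fold lower. The genes called lower included an unbroken run from Micu3 to Fgl1, with Slc7a2 inside it. Log2 fold changes in this run were -0.33 (Micu3), -0.096 (Zdhhc2), -0.36 (Cnot7), -0.45 (Vps37a), -0.74 (Mtmr7), -2.06 (Mtus1) and -0.43 (Fgl1). The genotypes overlapped for Zdhhc2 and Fgl1. Any link of this run to the fall of Slc7a2 was not tested.

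**Figure D5:**
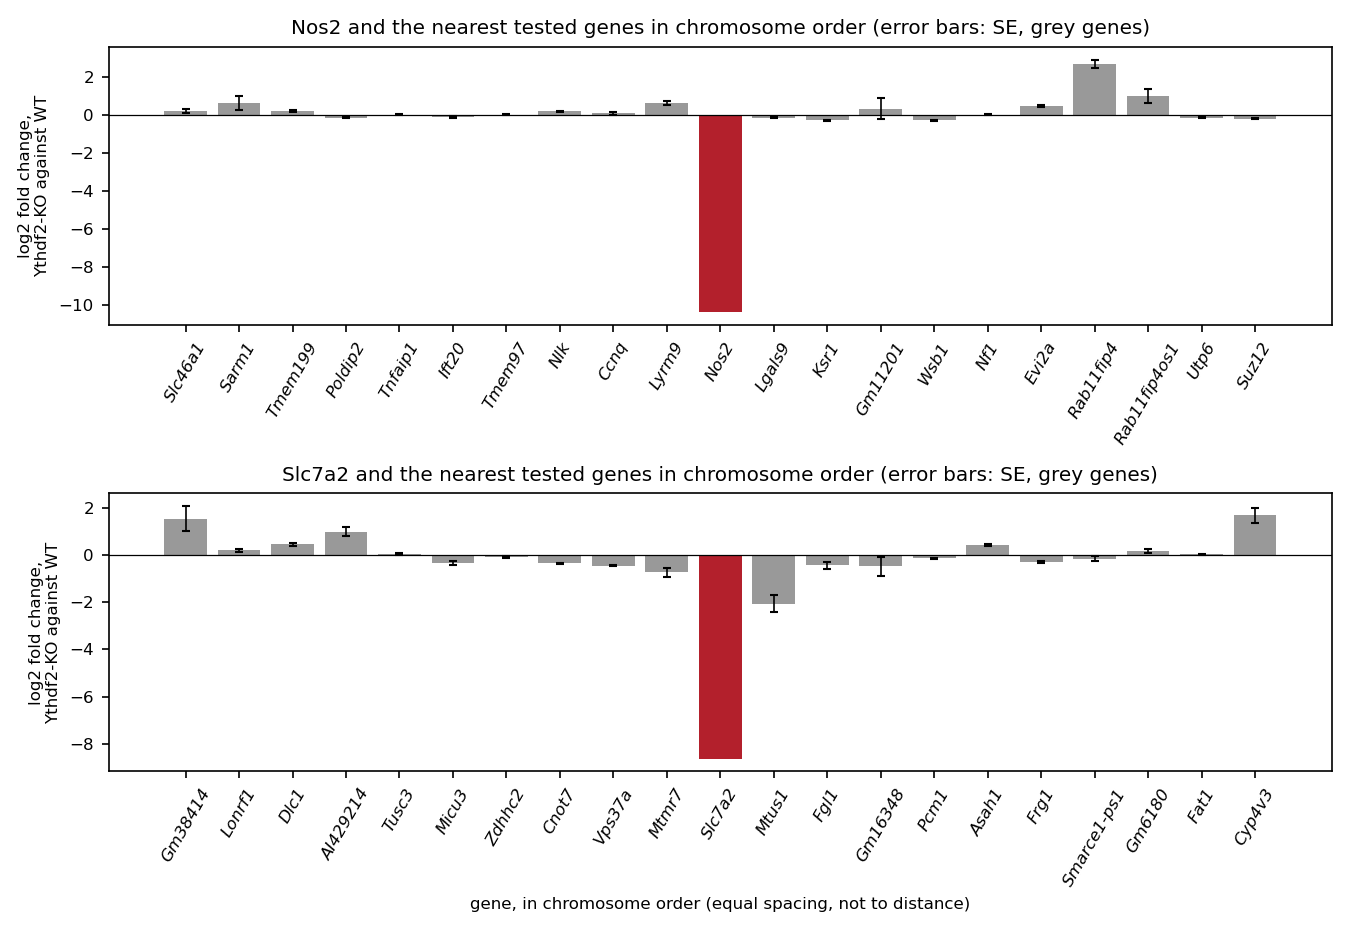
Log2 fold change (Ythdf2-KO against WT) of Nos2 and Slc7a2 (red, drawn with no error bar) and of the 10 nearest tested genes on each side (grey, error bars SE), equally spaced in chromosome order. Nos2 stands alone at -10.40; the fitted value of Slc7a2 rests on 2 counts in Ythdf2-KO, and its neighbour Mtus1 is at -2.06.

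The profiles closest to that of Nos2 over the 6 libraries were those of Gprc5d, Lcn2, Gm14275, Slc7a2 and Cxcl5, among 12683 other tested genes with a WT mean of at least 1 CPM. Likeness was the root mean square difference of log2 CPM after subtracting each gene's WT mean, and came to 1.55, 1.65, 1.90, 2.34 and 2.60 in that order. Slc7a2 is the only other gene of the 10 among the 5 nearest. By this measure, likeness rests mostly on the size of the fall. Slc7a2 was already seen among the deepest falls when the 10 were chosen, so its place here supports nothing. Lcn2, which encodes lipocalin 2, had WT levels of 1025 to 1055 CPM and Ythdf2-KO levels of 4.14 to 4.55 CPM. Cxcl5 had 1917 counts in WT and 16 in Ythdf2-KO. Gprc5d and Gm14275 had 1945 and 1871 counts in WT, and 2 and 6 in Ythdf2-KO, all in replicate 3; without that library they were at least 212- and 203-fold lower against a floor of 3 counts per library.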

How the data were processed

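Per the submitters' processing notes, the authors used fastp 0.23.2, HISAT2 2.2.1 and featureCounts 2.0.6 with GRCm39. The deposited table holds raw whole counts for each symbol, one column per library; how strand and multi-mapping reads were handled is not given in the sources used here. Antisense or overlapping genes and near-identical copies may therefore share counts. Columns were matched to samples by the labels. In R 4.3.3, edgeR 4.0.16 kept 17718 of 56734 symbols (filterByExpr defaults; 24228 had no count), scaled by TMM (factors 0.981 to 1.02) and fitted a robust quasi-likelihood model of genotype, with Benjamini-Hochberg adjustment over all tested genes; calls needed an adjusted p below 0.05. SE is the log2 fold change over the square root of F; for Nos2 and Slc7a2 it would be smaller than the counting error, so counting intervals are given instead. The procedure was run on simulated independent counts, drawn from means and spreads fitted to these same libraries. That run cannot show whether calls hold if the libraries are technical repeats or the genotypes single clones. Counting intervals are exact 95% (Poisson, or conditional binomial for ratios) and cover counting error only. All of them are too narrow if read pairs gave 2 counts.

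The members and role lists were chosen with earlier results of these data known. Named genes were the 10 members, Ythdf2, up to 5 called genes per role list with a fold of at least 1.5, untested list members, the nearest tested neighbours of Nos2 and Slc7a2, and the 5 profiles nearest to Nos2 (log2 CPM with a prior count of 2); others were named after their values were seen. Some genes of the role lists are not reported here and are left out of the lists' counts. Rars1 was found under its older symbol Rars. Transcripts came from GENCODE M21 (GRCm38), joined by symbol, so no positions of counted genes are given. Alternatives were RLE and upper-quartile factors, other filters, DESeq2 1.42.0, the replicate block, an adjusted p under 0.01 and leaving out each library. Figures used matplotlib 3.10.9.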

Additional observations from a re-analysis of the deposited data

How the results depend on the processing

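Of the 26 tested genes named by the rule above, 23 stayed on their side of the threshold in up to 12 alternatives. Odc1, Nostrin and Irf8 did not stay. None of the 26 changed direction. Among the listed genes outside that rule, Hif1a, Amd2, Prmt1, Slc7a3 and Oaz2 did with upper-quartile scaling, and Oaz2 also with RLE. None of these genes was called with either scaling or with TMM factors. With a mean of at least 5 CPM required, 3 of the 10 genes were called lower in place of 5, because Slc7a2 and Gch1 were no longer tested. Leaving out each library gave 5 members called lower and 2 to 3 higher. Over the other pathway genes it gave 12 to 16 higher and 19 to 22 lower, and over all genes 3937 to 4270 higher and 4158 to 4387 lower. Replicate numbers did not pair the libraries: the deviations of same-numbered libraries correlated at 0.0711, -0.105 and -0.118 for numbers 1 to 3, and only number 1 correlated best with its own. With the replicate block 4132 genes were higher and 4409 lower, 2 and 5 of the members, and 14 and 21 of the other pathway genes. Among the 26 genes the block ended only the call of Irf8 (edgeR adjusted p = 0.0613). With the median transcript length, levels in CPM per kb were 78.9 and 0.0580 for Nos2 in WT and Ythdf2-KO, and 15.0 and 21.0 for Nos1. In the same order they were 249 and 203 for Slc7a1, 27.0 and 30.4 for Asl and 17.4 and 22.6 for Pts. Slc7a2 was then at 1.29 in WT. The counts of Arg1, Arg2 and, in Ythdf2-KO, Slc7a2 limit what these depths can show.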
